A study of Mus musculus with 26 samples.

Results

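The myostatin, activin and follistatin family, here 10 genes, was followed in RNA from the left ventricle of mice of a hypertensive strain, BPH/2J, and a normotensive strain, BPN/3J. They are Mstn (myostatin), Gdf15, the activin subunits Inhba and Inhbb, the receptors Acvr1b, Acvr2a and Acvr2b, and the follistatin-type proteins Fst, Fstl3 and Fstl1. The genes were chosen by name, as 10 of the 40413 genes in the deposited table, after levels in these same groups had been seen, so their levels and differences are given as a description. Mice of each strain received either Cmpd17b, a small-molecule agonist of formyl peptide receptors, at 50 mg/kg/day by intraperitoneal injection, or vehicle, for 28 days. The groups were BPH/2J mice given Cmpd17b (BPH_Cmpd17b, 6 libraries used), BPH/2J mice given vehicle (BPH_vehicle, 7), BPN/3J mice given Cmpd17b (BPN_Cmpd17b, 5) and BPN/3J mice given vehicle (BPN_vehicle, 7). The mice were adult, and the labels name no transgene or other agent. Each library has its own identifier in the labels, which do not say more about how samples were taken, so the tests measure the spread between these libraries. BPH/2J and BPN/3J are inbred lines selected apart for blood pressure, so a strain difference takes in every difference in their genomes and not blood pressure alone.

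The 25 libraries used held 25500000 to 48600000 counts each, 20 of them in the labels' batch 1 and 5 in batch 2. All 5 BPN_Cmpd17b libraries belong to batch 1. The library labelled BPH_Cmpd17b replicate 7 was left out because Myh6, the chief ventricular myosin of the mouse, stood at 12.4 CPM there (counts scaled to library size by TMM), against 13442 to 23505 CPM in the other 25, and Kap, a kidney tubule transcript, at 18930 CPM. BPH_Cmpd17b replicate 6 and BPN_vehicle replicate 7 also stand apart: replicate 6 had the highest level of the 25 libraries in 10.8% of the 15543 genes tested, and BPN_vehicle replicate 7 in 22.6%. Values of the first are given separately where they bear on a gene below.

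Myostatin and the activins are secreted dimers of the TGF-beta superfamily. They bind the type II receptors Acvr2a and Acvr2b, which recruit a type I receptor such as Acvr1b and phosphorylate the transcription factors SMAD2 and SMAD3. Follistatin and Fstl3 wrap around activins and myostatin and keep them from their receptors. Myostatin is known as an inhibitor of skeletal muscle growth and is made at a low level by heart muscle. Gdf15 is a distant relative that is induced by cell stress and acts through a receptor of the hindbrain, not through the activin receptors.

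Of the 10 genes, Mstn separated the strains most clearly. Its level was lower in every BPH/2J library than in every BPN/3J library, with either treatment. The share of all genes tested that separate the strains in this way was not counted. The 5 genes most like Mstn, named below, do so too, so the separation is only a description. Gdf15 leaned higher in BPH/2J, and Fst was called as higher in BPH/2J than in BPN/3J mice under vehicle. For each of the 3 receptors the means of the 4 groups lay close together, with Acvr2a leaning lower in BPH/2J under Cmpd17b. No member passed the threshold for an effect of Cmpd17b in either strain.

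A gene was called at an adjusted p under 0.05 over all 15543 genes tested, in an edgeR fit with a term for batch. Under Cmpd17b, 2 of the 10 genes were called between the strains, Gdf15 higher and Mstn lower in BPH/2J, where 14.1% of all genes were called. Under vehicle, 2 of the 10 were called, Fst higher and Mstn lower, where 18.9% of all genes were called. The members were chosen on these contrasts, so nothing is read from these shares. The median log2 difference of the 10 was 0.07 under Cmpd17b, beside 0.01 for all genes, and 0.11 under vehicle, beside -0.00 for all genes. All 10 passed the filter on low counts, but Mstn passed it through the BPN/3J groups alone.

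**Figure D1:**
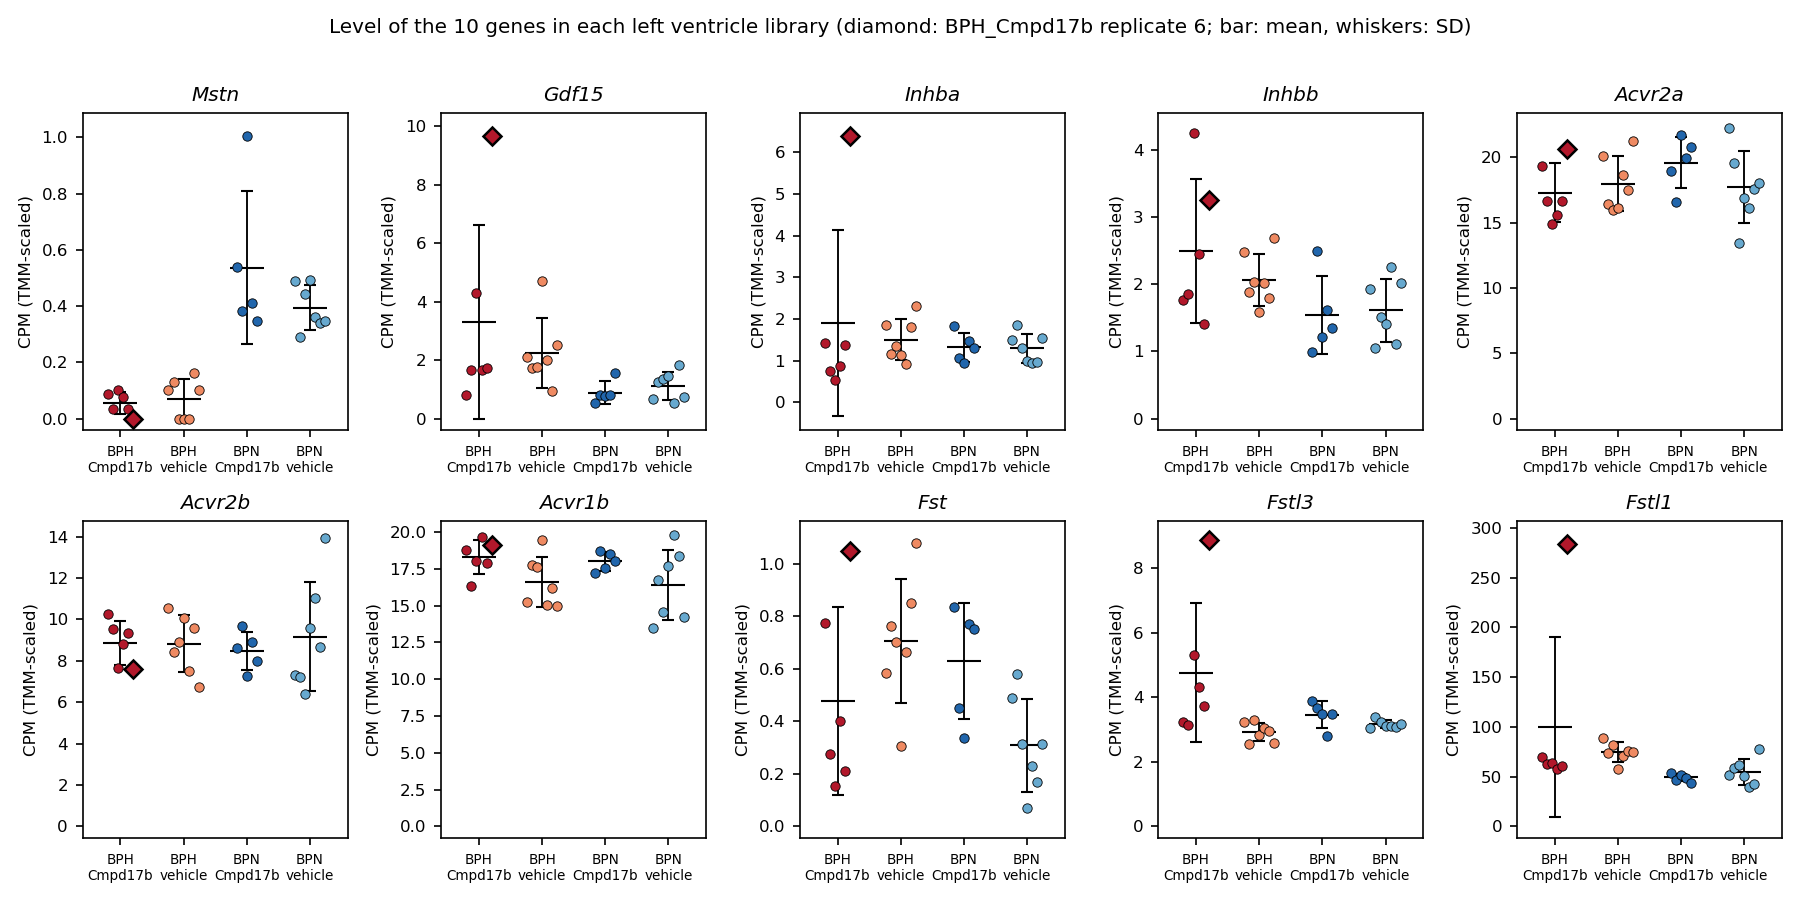
Level of each of the 10 genes in the 25 libraries used, in TMM-scaled CPM (linear axes), with 1 point per mouse, a bar at the group mean and whiskers of 1 SD. Every BPH/2J library lies below every BPN/3J library for Mstn, and BPH_Cmpd17b replicate 6 (diamond) is the highest of the 25 for Gdf15, Inhba, Fstl3 and Fstl1.

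Levels of different genes can be compared only per length. Per kilobase of exon (union of exons, GENCODE M21), Fstl1 was the most abundant of the family, with group means of 10.01 to 20.3 CPM per kb. The receptors Acvr1b (3.71 to 4.14 CPM per kb), Acvr2a (3.04 to 3.45) and Acvr2b (2.16 to 2.33) came next. Fstl3 stood at 1.199 to 1.95 CPM per kb and Gdf15 at 0.481 to 1.78, Gdf15 being the lower of the pair in every group but BPH_vehicle (1.22 against 1.199). The activin subunits stood lower, Inhbb at 0.361 to 0.588 CPM per kb and Inhba at 0.203 to 0.297. Fst (0.0674 to 0.154 CPM per kb) and Mstn (0.0205 to 0.198) were the lowest, and their order depended on the strain: Mstn lay below Fst in both BPH/2J groups and above it in both BPN/3J groups. The ranges of mean ± 1 SD met between many neighbours in this order. In BPH_Cmpd17b they met between Fstl1 and Acvr1b and between all neighbours from Acvr2b down (Acvr2b, Fstl3, Gdf15, Inhbb, Inhba, Fst and Mstn). In BPH_vehicle they met between Acvr1b and Acvr2a, between Gdf15 and Fstl3, and between Inhba and Fst. In BPN_Cmpd17b they met between all neighbours from Gdf15 down (Gdf15, Inhbb, Inhba, Mstn and Fst). In BPN_vehicle they met between neighbours among Acvr1b, Acvr2a and Acvr2b, between Gdf15 and Inhbb, and between Inhba and Mstn. The receptors were measured on 200 to 865 counts per library, and Mstn on 0 to 33.

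Mstn is the gene whose level differs most between the strains, so the 250 bases before its annotated start are shown first. They lie on the plus strand at chr1:53061390-53061639 of build GRCm38.p6 (RefSeq), as in the C57BL/6J reference genome, not as read in BPH/2J or BPN/3J mice. Capitals mark E-boxes (CANNTG, the motif of muscle basic helix-loop-helix factors) and SMAD boxes (CAGAC, or GTCTG on the other strand).

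Mstn: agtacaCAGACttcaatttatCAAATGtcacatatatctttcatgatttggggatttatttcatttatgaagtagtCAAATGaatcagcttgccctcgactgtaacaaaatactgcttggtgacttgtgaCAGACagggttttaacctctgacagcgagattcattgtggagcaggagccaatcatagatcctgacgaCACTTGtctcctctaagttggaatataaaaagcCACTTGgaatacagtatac

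The window holds 4 E-boxes, 2 SMAD boxes and 1 TATA box (TATAAA), the last beginning 29 bases before the start. Among 32851 promoter windows of the same length, 66.2% hold an E-box, 42.2% a SMAD box and 12.4% the TATA letters on either strand, with a median of 1 E-box per window. The E-box and SMAD letters do not overlap in this window. These matches describe the reference sequence and are not evidence of binding.

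In BPH_Cmpd17b mice, Mstn had 3, 1, 4, 3, 1 and 0 counts in replicates 1 to 6, or 0.0858, 0.0343, 0.102, 0.0753, 0.0352 and 0 CPM. In BPN_Cmpd17b mice it had 20, 11, 33, 16 and 12 counts, or 0.539, 0.381, 1.00, 0.410 and 0.346 CPM. The groups do not overlap, and the highest BPH_Cmpd17b library lies well under the lowest BPN_Cmpd17b library. The means were 0.0555 ± 0.0386 CPM (SD, n = 6) in BPH_Cmpd17b and 0.536 ± 0.272 CPM (n = 5) in BPN_Cmpd17b, a fitted log2 difference of -3.14 ± 0.60 (SE, 95% interval -4.36 to -1.91).

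Under vehicle the picture was much the same. The counts of Mstn in BPH_vehicle replicates 1 to 7 were 3, 5, 0, 0, 0, 8 and 3, at a median of 0.101 CPM and a highest value of 0.162 CPM. BPN_vehicle replicates 1 to 7 had 14, 8, 17, 14, 11, 12 and 11 counts, with a lowest, median and highest level of 0.289, 0.361 and 0.494 CPM. All 7 BPN_vehicle libraries exceeded all 7 BPH_vehicle libraries in CPM, although 1 BPH_vehicle library had as many raw counts as the lowest BPN_vehicle library. Means were 0.0710 ± 0.0694 CPM in BPH_vehicle and 0.395 ± 0.0804 CPM in BPN_vehicle (SD, n = 7 each). The fitted log2 difference was -2.39 ± 0.52 (95% interval -3.46 to -1.31).

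These are small counts. Mstn was not detected in 4 BPH/2J libraries, in which a count of 0 allows up to 3 counts, or 0.0725 to 0.0994 CPM. Summed over each group, Mstn had 12 counts in BPH_Cmpd17b and 92 in BPN_Cmpd17b, at pooled levels of 0.0583 CPM (exact Poisson 95% interval 0.0301 to 0.102) and 0.534 CPM (0.430 to 0.654). It had 19 counts in BPH_vehicle and 87 in BPN_vehicle, at 0.0739 CPM (0.0445 to 0.115) and 0.395 CPM (0.316 to 0.487). These intervals cover counting error only and describe the levels on which the gene was chosen. Within batch 1 the fitted difference was -2.90 under Cmpd17b and -2.59 under vehicle, and both were called. In batch 2, with 2 libraries per strain under vehicle, the difference was -1.89 and was not called. In bulk tissue, fewer cells that express a gene and less RNA per cell cannot be told apart.

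Because Mstn is foremost a skeletal muscle gene, fast skeletal muscle transcripts were read beside it. Myh4, a fast myosin heavy chain, averaged 0.0107 CPM in BPH_Cmpd17b and was at 0 in all 5 BPN_Cmpd17b libraries. Under vehicle Myh4 averaged 0.333 CPM in BPH_vehicle, where 1 library reached 1.89 CPM, and 0.0298 CPM in BPN_vehicle. Myh1 and Myh2 likewise averaged at most 0.140 and 0.0592 CPM in any group, with the highest means in BPH_vehicle. In that group the highest library reached 0.945 and 0.281 CPM, and the medians were 0 and 0.0202 CPM. Mylpf, a fast myosin light chain, averaged 0.389 CPM in BPH_Cmpd17b and 0.434 CPM in BPN_Cmpd17b, and 0.436 CPM in BPH_vehicle and 0.514 CPM in BPN_vehicle. Of the 14 markers 7 were tested, and 0 were called between the strains under Cmpd17b and 2 under vehicle, both lower in BPH/2J. The summed level of the 14 skeletal markers, which include genes that the heart also uses, such as Ckm and Acta1, ran from 2619 to 3121 CPM in BPH_Cmpd17b and 2461 to 3037 CPM in BPN_Cmpd17b. Under vehicle it ran from 2304 to 2653 CPM in BPH_vehicle and 2637 to 3892 CPM in BPN_vehicle. Acta1, the skeletal alpha-actin, averaged 490 ± 92.5 CPM in BPH_vehicle and 961 ± 192 CPM in BPN_vehicle. Under Cmpd17b Acta1 averaged 777 ± 402 CPM in BPH_Cmpd17b and 814 ± 163 CPM in BPN_Cmpd17b. Other fast muscle transcripts had the higher mean in BPH_vehicle, at low levels. These were Tnnt3 (0.533 against 0.166 CPM in BPN_vehicle), Tnni2 (0.352 against 0.226), Actn3 (0.128 against 0.0534) and Pvalb (0.159 against 0.0233). The highest BPH_vehicle library reached 1.61, 0.613, 0.409 and 0.613 CPM for these genes in turn, which raised the means. Medians in BPH_vehicle were 0.482, 0.379, 0.0688 and 0.0404 CPM, and in BPN_vehicle 0.176, 0.210, 0.0285 and 0 CPM. The part of skeletal muscle in the Mstn difference was not tested.

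Gdf15 has 2 annotated starts in RefSeq, and both windows of 250 bases are shown because Gdf15 was, with Mstn, called between the strains under Cmpd17b. They lie on the minus strand of GRCm38.p6, at chr8:70632457-70632706 (start 1) and chr8:70632096-70632345 (start 2). Capitals mark the same motifs as above.

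Gdf15 start 1: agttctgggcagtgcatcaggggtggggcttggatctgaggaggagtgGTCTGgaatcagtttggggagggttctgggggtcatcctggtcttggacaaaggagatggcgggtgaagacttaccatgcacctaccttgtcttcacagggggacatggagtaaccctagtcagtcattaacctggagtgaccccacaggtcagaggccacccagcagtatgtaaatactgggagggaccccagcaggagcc

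Gdf15 start 2: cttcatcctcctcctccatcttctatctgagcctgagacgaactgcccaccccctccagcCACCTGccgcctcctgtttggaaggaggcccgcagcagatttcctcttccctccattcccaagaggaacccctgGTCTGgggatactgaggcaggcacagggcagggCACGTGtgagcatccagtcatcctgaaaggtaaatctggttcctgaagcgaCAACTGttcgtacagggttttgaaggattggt

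The first window holds 1 SMAD box and no E-box. The second holds 3 E-boxes and 1 SMAD box, and 1 of the E-boxes is CACGTG, letters found in 6.02% of all windows. Neither window holds TGATGNAA, the core of the element bound by ATF4 with its partners, which 3.45% of windows hold on either strand. Promoter entries were matched for 9 of the 10 genes, and Fstl3 was the only other member with both an E-box (3) and a SMAD box (2), the letters of 1 of each running into one another.

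Gdf15 stood at 0.801, 1.68, 4.30, 1.66, 1.73 and 9.66 CPM in BPH_Cmpd17b replicates 1 to 6. BPN_Cmpd17b replicates 1 to 5 had 0.539, 0.797, 0.761, 0.794 and 1.56 CPM. Of the 6 BPH_Cmpd17b libraries, 5 lay above all 5 BPN_Cmpd17b libraries, and replicate 1 lay among them. Means were 3.30 ± 3.33 CPM (SD, n = 6) in BPH_Cmpd17b and 0.890 ± 0.389 CPM (n = 5) in BPN_Cmpd17b, a log2 difference of 1.62 ± 0.51 (SE, 95% interval 0.57 to 2.66). The call changed with the libraries and the method: without BPH_Cmpd17b replicate 6 the difference was 1.19 and was not called, and it was called in 5 of the 11 fits that left out 1 library of the compared groups. The other fits that lost the call were those without BPH_Cmpd17b replicate 3 or BPN_Cmpd17b replicate 1, 2, 3 or 4. In batch 1 alone the difference was also 1.19 and not called. Nor was Gdf15 called with limma voom (1.189), with 23 libraries (1.198), in a fit of the compared groups alone (1.197), with no filter on low counts (1.62) or with all 26 libraries (1.58).

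Under vehicle, Gdf15 ran from 0.929 to 4.73 CPM in BPH_vehicle with a median of 1.99 CPM. In BPN_vehicle it ran from 0.525 to 1.85 CPM with a median of 1.27 CPM. Of the 7 BPH_vehicle libraries, 4 lay above all BPN_vehicle libraries, and the groups overlapped. The log2 difference of Gdf15 was 0.98 ± 0.42 (95% interval 0.11 to 1.85) and was not called. Without BPH_vehicle replicate 4, the highest of that group, it was 0.59.

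The activin subunits Inhba and Inhbb encode the beta A and beta B chains, which pair to form the activins or join the alpha chain of inhibin. Inhba averaged 1.90 ± 2.24 CPM (SD, n = 6) in BPH_Cmpd17b and 1.32 ± 0.349 CPM (n = 5) in BPN_Cmpd17b. The high mean of BPH_Cmpd17b came from replicate 6, at 6.40 CPM; its other 5 libraries lay between 0.538 and 1.43 CPM, with a mean of 0.995 ± 0.391 CPM. Under vehicle Inhba averaged 1.51 ± 0.501 CPM in BPH_vehicle and 1.30 ± 0.348 CPM in BPN_vehicle. The log2 difference of Inhba was -0.03 ± 0.32 under Cmpd17b (-0.42 without replicate 6) and 0.20 ± 0.28 under vehicle, and neither was called.

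Inhbb averaged 2.50 ± 1.08 CPM in BPH_Cmpd17b and 1.54 ± 0.581 CPM in BPN_Cmpd17b, a log2 difference of 0.67 ± 0.27 (95% interval 0.12 to 1.21). Under vehicle it averaged 2.07 ± 0.388 CPM in BPH_vehicle and 1.61 ± 0.467 CPM in BPN_vehicle, a difference of 0.34 ± 0.23. Neither difference was called, and only 2 BPH/2J libraries exceeded all BPN/3J libraries in each. The first was called in 2 of 11 fits without 1 library. Inhbb was highest in BPH_Cmpd17b replicate 3, at 4.25 CPM, the library that was also second in that group for Gdf15 and Fstl3.

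The group means of each receptor lay close together, although within BPN_vehicle Acvr2b ran from 6.42 to 13.9 CPM. Acvr1b, a type I receptor of activins, averaged 18.3 ± 1.18 CPM in BPH_Cmpd17b, 16.6 ± 1.72 in BPH_vehicle, 18.0 ± 0.621 in BPN_Cmpd17b and 16.4 ± 2.38 in BPN_vehicle. Acvr2b, the type II receptor with the higher affinity for myostatin, averaged 8.87 ± 1.08, 8.82 ± 1.37, 8.48 ± 0.918 and 9.17 ± 2.62 CPM in the same groups. The log2 strain difference of Acvr1b had a 95% interval of -0.14 to 0.23 under Cmpd17b and -0.14 to 0.18 under vehicle. For Acvr2b the interval was -0.20 to 0.40 under Cmpd17b and -0.31 to 0.22 under vehicle. The highest Acvr2b level, 13.9 CPM, was in BPN_vehicle replicate 7.

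Acvr2a, the other type II receptor, averaged 17.3 ± 2.23 CPM in BPH_Cmpd17b and 19.6 ± 1.96 CPM in BPN_Cmpd17b, a log2 difference of -0.24 ± 0.08 (95% interval -0.41 to -0.07) that was not called. It was called by DESeq2 (-0.25), by limma voom (-0.24), with 23 libraries (-0.24), and in 2 of 11 fits without 1 library. Under vehicle Acvr2a averaged 18.0 ± 2.07 CPM in BPH_vehicle and 17.7 ± 2.75 CPM in BPN_vehicle, a difference of 0.03 ± 0.07. This gene moved with batch. In batch 2 it stood at 20.7 CPM in the BPH_Cmpd17b library, and averaged 20.7 CPM in BPH_vehicle and 20.9 CPM in BPN_vehicle. In batch 1 the means were 16.6, 16.9 and 16.4 CPM in the same groups. Within batch 1 the strain difference was -0.25 under Cmpd17b and 0.04 under vehicle.

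**Figure D2:**
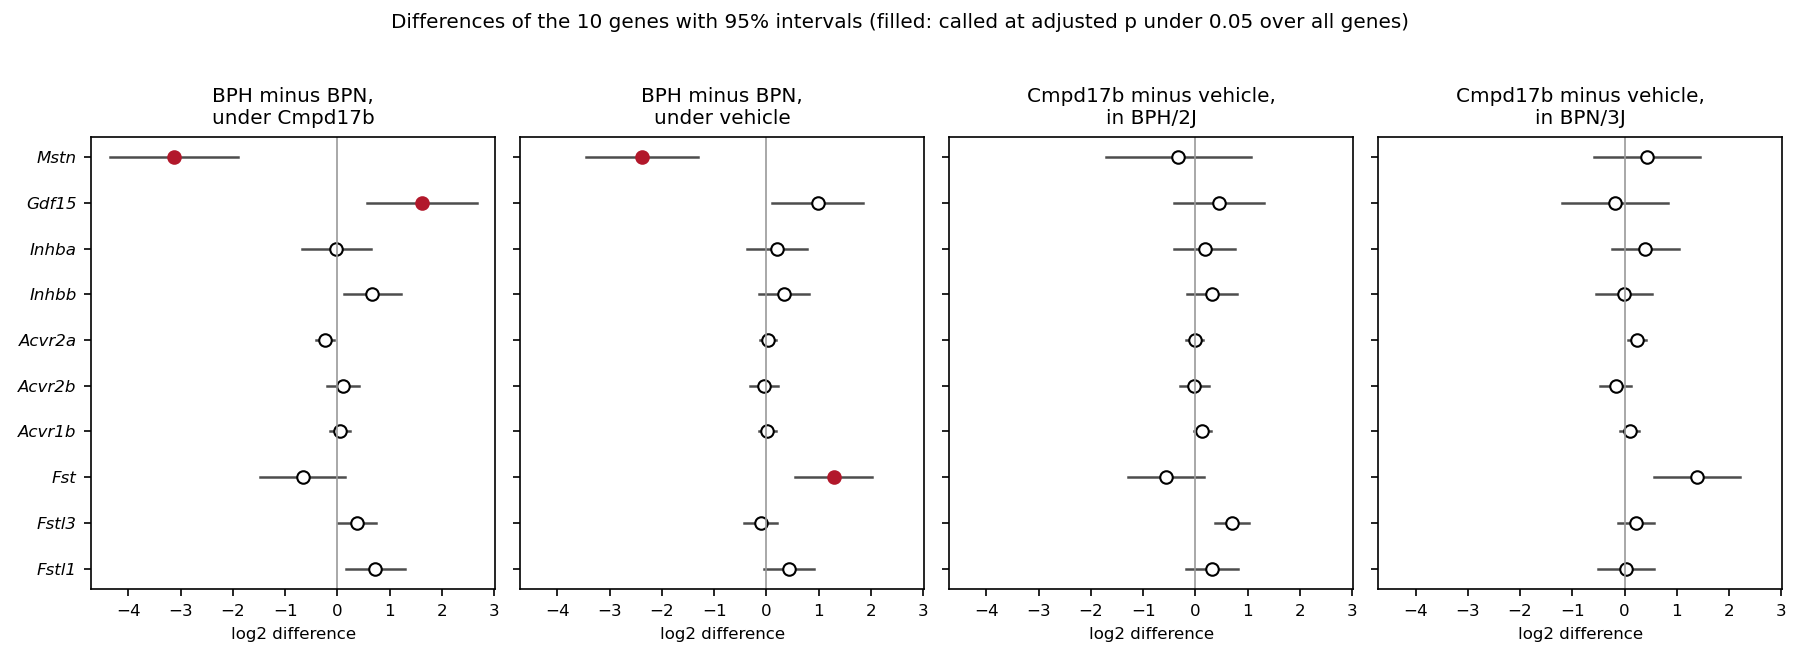
Fitted log2 differences of the 10 genes (points) with 95% intervals (lines), between strains (BPH minus BPN) and between treatments (Cmpd17b minus vehicle), from 1 edgeR fit of 25 libraries. Mstn lies at -3.14 and -2.39 in the strain panels, Gdf15 is called under Cmpd17b at 1.62 and Fst under vehicle at 1.29, and no gene is called for Cmpd17b.

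Fst encodes follistatin, the secreted binder of activins and myostatin. Under vehicle it stood at 0.585, 0.761, 0.701, 0.306, 0.663, 0.848 and 1.08 CPM in BPH_vehicle replicates 1 to 7. In BPN_vehicle replicates 1 to 7 it stood at 0.490, 0.578, 0.312, 0.0706, 0.230, 0.171 and 0.315 CPM. Of the 7 BPH_vehicle libraries, 6 lay above all BPN_vehicle libraries, and replicate 4 lay within their range. Means were 0.706 ± 0.237 CPM in BPH_vehicle and 0.309 ± 0.177 CPM in BPN_vehicle (SD, n = 7 each), a log2 difference of 1.29 ± 0.36 (95% interval 0.55 to 2.02).

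Under Cmpd17b the order was the other way. Fst stood at 0.772, 0.274, 0.154, 0.402, 0.211 and 1.05 CPM in BPH_Cmpd17b replicates 1 to 6, and at 0.836, 0.451, 0.335, 0.769 and 0.751 CPM in BPN_Cmpd17b replicates 1 to 5. The groups overlap, and their log2 difference of -0.66 ± 0.39 (95% interval -1.47 to 0.14) was not called. Setting the treatments against each other, the difference for Cmpd17b was -0.56 ± 0.36 in BPH/2J and 1.39 ± 0.40 in BPN/3J. The difference between these 2 values, -1.95 ± 0.54 (95% interval -3.06 to -0.85), was not called over all genes.

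Fst also differed by batch among vehicle mice. In batch 1 it averaged 0.656 CPM in BPH_vehicle and 0.220 CPM in BPN_vehicle, a fitted difference of 1.55 that was called. In batch 2, with 2 libraries each, it averaged 0.831 CPM in BPH_vehicle and 0.534 CPM in BPN_vehicle, a difference of 0.64 that was not called. The 2 BPN_vehicle libraries of batch 2 also had the highest sums of 7 liver markers, 401 and 632 CPM. The part of liver transcripts in this split of Fst was not tested. Within batch 1 the Cmpd17b difference of Fst was -0.85 in BPH/2J and 1.495 in BPN/3J. The counts of Fst were 2 to 42 per library.

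Fstl3, an antagonist that binds activin and myostatin and is also found in the nucleus, was the member with the largest Cmpd17b difference relative to its error in BPH/2J. It stood at 3.23, 3.15, 5.30, 4.32, 3.73 and 8.88 CPM in BPH_Cmpd17b replicates 1 to 6, against a lowest, median and highest level of 2.57, 2.95 and 3.29 CPM in BPH_vehicle. Of the 6 BPH_Cmpd17b libraries, 4 lay above all 7 BPH_vehicle libraries. The log2 difference was 0.70 ± 0.16 (95% interval 0.38 to 1.02), and within batch 1, without replicate 6, it was 0.43. It was not called over all genes in the fit of 25 libraries. In BPN/3J, Fstl3 averaged 3.47 ± 0.410 CPM in BPN_Cmpd17b (n = 5) and 3.17 ± 0.122 CPM in BPN_vehicle (n = 7), a difference of 0.22 ± 0.17. Between strains the difference was 0.37 ± 0.18 under Cmpd17b and -0.11 ± 0.15 under vehicle, neither called.

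Fstl1 shares the follistatin domain but is not known as a strong activin binder; in the mouse heart it is a secreted product of the epicardium, fibroblasts and muscle cells. It stood at 69.9, 62.5, 64.1, 57.6, 60.9 and 284 CPM in BPH_Cmpd17b replicates 1 to 6, and at 54.1, 47.1, 51.9, 48.8 and 44.0 CPM in BPN_Cmpd17b replicates 1 to 5. All 6 BPH_Cmpd17b libraries lay above all 5 BPN_Cmpd17b libraries, and how many of all genes do so was not counted. The log2 difference of 0.72 ± 0.27 (95% interval 0.16 to 1.29) was not called, and without replicate 6 it was 0.35. The group mean was 99.8 ± 90.3 CPM with it (n = 6) and 63.0 ± 4.55 CPM without it (n = 5). Under vehicle Fstl1 averaged 74.6 ± 9.75 CPM in BPH_vehicle and 54.5 ± 13.0 CPM in BPN_vehicle, a difference of 0.44 ± 0.23 that was not called. In batch 2 alone, with 2 libraries per strain, it was 0.58 and was called. Fstl1 was also called in fits of the compared groups alone, at 0.35 under Cmpd17b and 0.45 under vehicle. Without BPH_Cmpd17b replicate 6 and BPN_vehicle replicate 7 together (23 libraries) it was called under both treatments, at 0.36 under Cmpd17b and 0.57 under vehicle. It was called under Cmpd17b with no batch term, at 1.02, and under vehicle with limma voom, at 0.63.

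BPH_Cmpd17b replicate 6 had the highest level of all 25 libraries in 4 of the 10 genes. Its Gdf15 was 6.43 times the median of the other 24 libraries, its Inhba 4.93 times, its Fstl1 4.76 times and its Fstl3 2.77 times. Fst and Inhbb were the second highest of the 25 there, at 2.23 and 1.79 times that median, whereas the receptors lay at 0.857 to 1.18 times it. Matrix genes moved with them in this library. Postn (periostin), made by activated fibroblasts, reached 506 CPM, where the highest of the other 24 was 80.8 CPM, and Ltbp2 reached 41.9 CPM, where the highest was 9.31 CPM. Col1a1, an alpha chain of type I collagen, reached 305 CPM, where the highest was 78.4 CPM.

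Marker lists of cell types were summed in the same library. The 10 cardiomyocyte markers summed to 54410 CPM in replicate 6, the lowest of 25, where the other 24 ran from 57990 to 76963 CPM. The 9 macrophage markers summed to 409 CPM, the highest of 25, where the others ran from 191 to 351 CPM. The 9 fibroblast markers summed to 2581 CPM, second to BPN_vehicle replicate 7, and the atrial list to 2562 CPM, where the others reached at most 1121 CPM. Of that list Bmp10 was at 0 in every BPH_Cmpd17b library, and Myl7, the atrial light chain, was at most 1.18 CPM in the group. In BPH_vehicle Myl7 had a median of 0.0688 CPM and a highest value of 68.8 CPM. Of the 6 atrial markers 3 were tested. Between strains 2 of these were called higher in BPH/2J under Cmpd17b and 2 under vehicle, where 14.1% and 18.9% of all genes were called. The part of these cell types in the 4 high members was not tested.

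**Figure D3:**
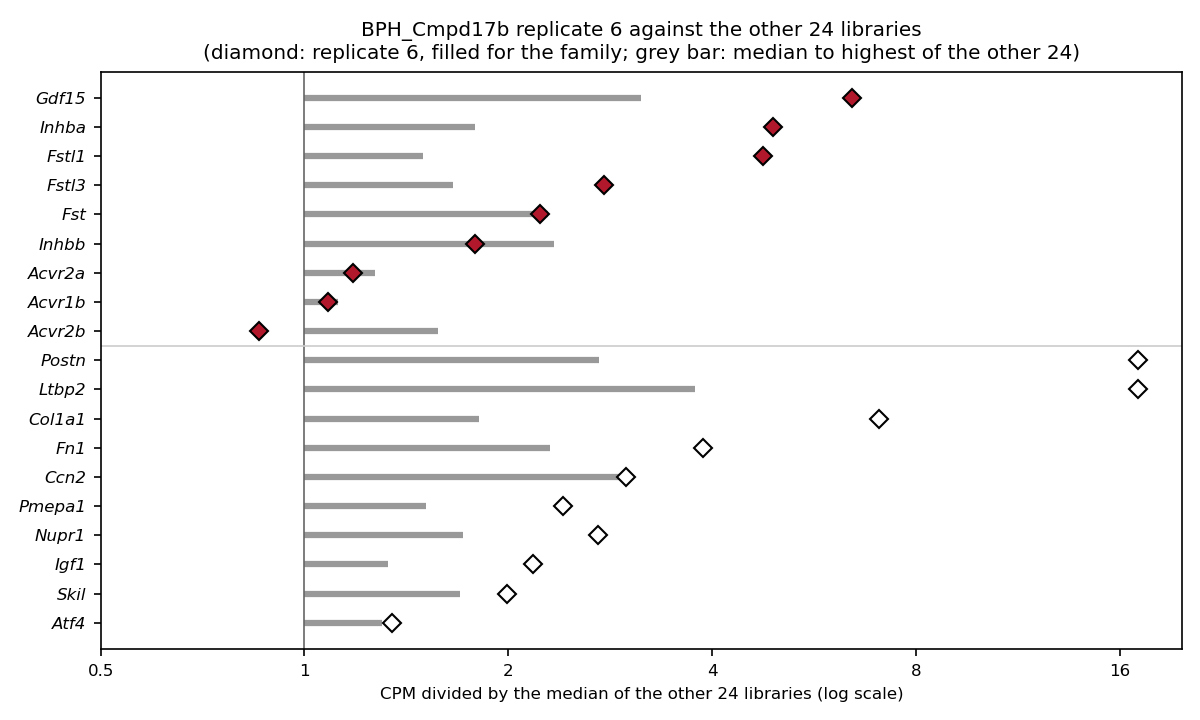
Level in BPH_Cmpd17b replicate 6 (diamonds) divided by the median of the other 24 libraries, on a log axis, for 9 of the family (filled, Mstn being at 0 there) and for other genes of the pathway or matrix (open). Grey bars run from the median to the highest of the other 24; Gdf15, Inhba, Fstl1 and Fstl3 lie beyond the bar, and the receptors within or left of it.

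The effect of Cmpd17b was tested within each strain. In BPH/2J 0 of the 10 genes were called, where 0% of the 15543 genes tested were called, and Fstl3 had an unadjusted p under 0.05, as had 287 of all genes. In BPN/3J 0 of the 10 were called, again beside 0% of all genes, with Fst and Acvr2a among the 1506 genes at an unadjusted p under 0.05. For the difference of the 2 effects, 0 of 10 and 0% of all genes were called, with Fst and Acvr2a among 595 at an unadjusted p under 0.05. These counts come from edgeR. DESeq2 called 0, 1 and 0 of all genes in the same contrasts and limma voom 0 in each, and none of the 10 was called by either. The strain and treatment contrasts share groups, and so are not independent of each other.

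The 95% intervals show what size of Cmpd17b effect the data allow. For Mstn the interval ran from -1.71 to 1.06 in BPH/2J and from -0.59 to 1.44 in BPN/3J, so a Cmpd17b effect of 1 log2 unit upward lies inside both. For Gdf15 it ran from -0.41 to 1.32 in BPH/2J and from -1.19 to 0.83 in BPN/3J. The fitted values in BPH/2J leaned on replicate 6: without it, Gdf15 differed by -0.17 in place of 0.45, and Fstl1 by -0.21 in place of 0.31. Inhba differed by -0.39 in place of 0.17 without that library. Acvr1b was held more tightly, between -0.04 and 0.30 in BPH/2J and between -0.08 and 0.28 in BPN/3J. For Acvr2b the bounds were -0.30 and 0.25 in BPH/2J and -0.47 and 0.13 in BPN/3J.

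A wider set of 145 genes of the pathway, in 7 lists and without the 10 members, gave 128 genes tested. Between strains under Cmpd17b, 16 of them (12.5%) were called, 13 higher and 3 lower in BPH/2J. Under vehicle 22 (17.2%) were called, 12 higher and 10 lower. Both shares lie close to those of all genes, 14.1% and 18.9%. Where the libraries of the strains are said below not to overlap for a gene, how many of all genes do so was not counted. The median log2 difference of the 128 was 0.05 under Cmpd17b and 0.06 under vehicle. For Cmpd17b in BPH/2J and in BPN/3J, and for the difference of these effects, 0 were called by edgeR, with 0, 15 and 7 at an unadjusted p under 0.05.

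**Figure D4:**
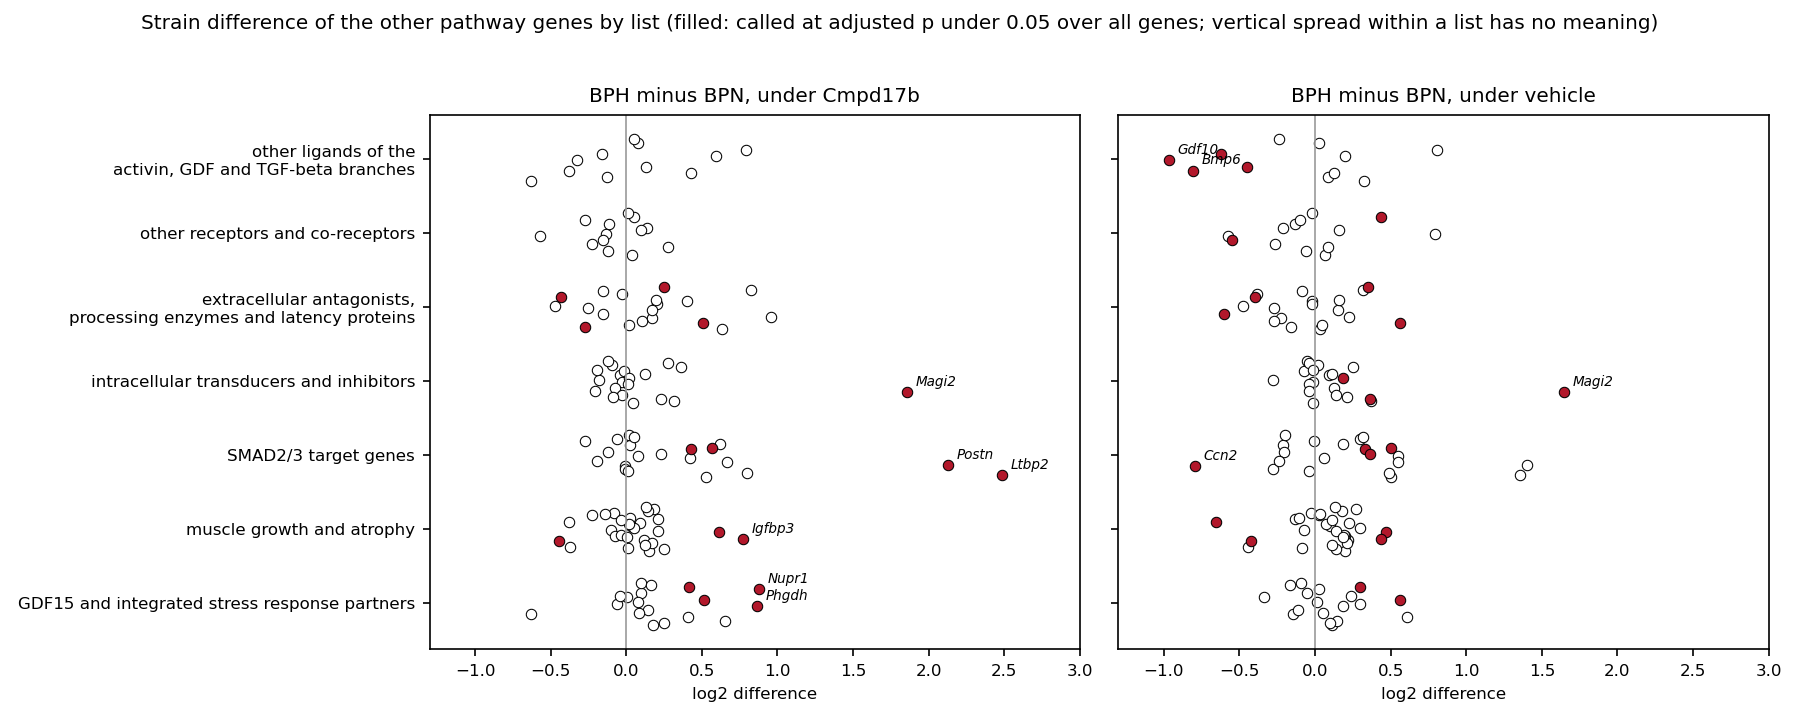
Log2 strain difference (BPH minus BPN) of the 128 tested pathway genes in 7 lists, 1 point per gene and list (Cdkn1a, Skil and Smad7 are each in 2), under Cmpd17b (left) and vehicle (right). Filled points were called over all genes and those beyond 0.75 in size are named; of the called ligands all 4 lie below 0 under vehicle, and Magi2 lies at 1.86 under Cmpd17b and 1.65 under vehicle.

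Among other ligands, 0 of 11 tested were called under Cmpd17b, and under vehicle 4 of 11 were called, all lower in BPH/2J. Bmp6, a bone morphogenetic protein, averaged 13.3 ± 1.49 CPM in BPH_vehicle and 23.4 ± 7.95 CPM in BPN_vehicle, with all 7 BPN_vehicle libraries above all 7 BPH_vehicle libraries. Its log2 difference was -0.81 ± 0.13 (SE, edgeR adjusted p = 2.34e-05). Gdf10 differed by -0.97 ± 0.24 (adjusted p = 0.00451), Bmp4 by -0.62 ± 0.19 (adjusted p = 0.0204) and Inha, the inhibin alpha chain, by -0.45 ± 0.14 (adjusted p = 0.0260). BPN_vehicle replicate 7 was the highest of the 25 libraries for its sum of 10 endothelial markers, at 2820 CPM, and without it Bmp6 differed by -0.63 and was called, Bmp4 by -0.33 and Inha by -0.27, neither called. The call for Inha was also lost without BPH_vehicle replicate 6 or 7 or BPN_vehicle replicate 4. Among other receptors, under vehicle the BMP type I receptor Bmpr1a was higher (0.43 ± 0.13, adjusted p = 0.0164, 7 of 7 libraries) and the endothelial co-receptor Eng lower (-0.55 ± 0.13, adjusted p = 0.00327). Without BPN_vehicle replicate 7 these 2 differed by 0.31 and -0.35, both still called. None of the 13 other receptors tested was called under Cmpd17b.

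Of 19 extracellular antagonists, processing enzymes and latency proteins tested, 2 were higher and 2 lower under each treatment. Wfikkn2, which binds myostatin and Gdf11 and blocks them, was higher in BPH/2J under both. It averaged 9.81 ± 2.27 CPM in BPH_Cmpd17b and 7.09 ± 0.663 CPM in BPN_Cmpd17b (log2 difference 0.51 ± 0.15, adjusted p = 0.0207), and the call was lost without BPH_Cmpd17b replicate 4 or BPN_Cmpd17b replicate 5. Under vehicle it averaged 9.55 ± 1.68 CPM in BPH_vehicle and 6.40 ± 1.35 CPM in BPN_vehicle (0.56 ± 0.13, adjusted p = 0.00268). Ltbp1, which tethers latent TGF-beta to the matrix, was higher by 0.25 ± 0.07 under Cmpd17b (adjusted p = 0.00911) and by 0.35 ± 0.06 under vehicle (adjusted p = 3.82e-05). Lrrc32, a membrane anchor of latent TGF-beta, was lower under vehicle (-0.60 ± 0.18, adjusted p = 0.0181), and by -0.45, still called, without BPN_vehicle replicate 7. Igsf1 differed by -0.43 ± 0.14 under Cmpd17b (adjusted p = 0.0436) and by -0.39 ± 0.13 under vehicle (adjusted p = 0.0302), and Pcsk6, a proprotein convertase, by -0.27 ± 0.08 under Cmpd17b (adjusted p = 0.0263). These 3 calls held in 3 of 11, 6 of 14 and 5 of 11 fits without 1 library.

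Of 20 intracellular transducers and inhibitors, 1 was called under Cmpd17b and 3 under vehicle, all higher in BPH/2J. Magi2, a scaffold protein that in the mouse binds activin type II receptors, stood at 4.23 ± 0.548 CPM in BPH_Cmpd17b and 1.14 ± 0.231 CPM in BPN_Cmpd17b (log2 difference 1.86 ± 0.22, adjusted p = 1.985e-07). Under vehicle Magi2 stood at 3.97 ± 0.881 CPM in BPH_vehicle and 1.28 ± 0.475 CPM in BPN_vehicle (1.65 ± 0.19, adjusted p = 9.91e-08). Every BPH/2J library exceeded every BPN/3J library of the same treatment. The SMAD repressor Skil was higher under vehicle (0.37 ± 0.10, adjusted p = 0.0120). Smad4, the common partner of the receptor SMADs, was higher under vehicle by 0.19 ± 0.07 (adjusted p = 0.0490), a call kept in 3 of 14 fits without 1 library. Close relatives of the members were not called in any contrast: Acvr1, Gdf11, Smad7, Tgfbr1 and Tgfbr2 had strain differences between -0.13 and 0.28.

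Of 21 target genes of SMAD2 and SMAD3, 4 were higher and 0 lower in BPH/2J under Cmpd17b, and 3 were higher and 1 lower under vehicle. Pmepa1, which is induced by TGF-beta and dampens its signal, averaged 25.6 ± 9.54 CPM in BPH_Cmpd17b and 16.3 ± 1.28 CPM in BPN_Cmpd17b (log2 difference 0.57 ± 0.13, adjusted p = 0.00218). Under vehicle it averaged 23.02 ± 2.48 CPM in BPH_vehicle and 16.1 ± 1.02 CPM in BPN_vehicle (0.50 ± 0.11, adjusted p = 0.00129), with no overlap under either treatment. Postn differed by 2.13 ± 0.64 under Cmpd17b (adjusted p = 0.0284), and by 1.27, still called, without BPH_Cmpd17b replicate 6. The call for Postn was lost without BPN_Cmpd17b replicate 2, 3, 4 or 5. Ltbp2 differed by 2.48 ± 0.75 under Cmpd17b (adjusted p = 0.0271), and by 1.70, still called, without BPH_Cmpd17b replicate 6. The call for Ltbp2 was lost without BPN_Cmpd17b replicate 3, 4 or 5. Ccn2 was lower under vehicle (-0.80 ± 0.27, adjusted p = 0.0446), a call kept in 5 of 14 fits without 1 library. Bhlhe40, a transcriptional repressor, was higher by 0.43 ± 0.13 under Cmpd17b (adjusted p = 0.0277) and by 0.33 ± 0.12 under vehicle (adjusted p = 0.0476), kept in 6 of 11 and 4 of 14 such fits.

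Of 29 genes of muscle growth and atrophy, 2 were higher and 1 lower in BPH/2J under Cmpd17b, and 2 were higher and 2 lower under vehicle. Mtor, the growth kinase, averaged 30.8 ± 2.23 CPM in BPH_Cmpd17b and 42.6 ± 3.90 CPM in BPN_Cmpd17b (log2 difference -0.45 ± 0.09, adjusted p = 0.000587). Under vehicle Mtor averaged 29.3 ± 1.24 CPM in BPH_vehicle and 39.6 ± 6.31 CPM in BPN_vehicle (-0.43 ± 0.08, adjusted p = 0.000165), and all libraries of BPN/3J lay above those of BPH/2J under either treatment. Igfbp3, a carrier of insulin-like growth factors, was higher by 0.77 ± 0.15 under Cmpd17b (adjusted p = 0.000575) and by 0.44 ± 0.13 under vehicle (adjusted p = 0.0201). The growth factor Igf1 was higher by 0.62 ± 0.18 under Cmpd17b (adjusted p = 0.0211) and by 0.47 ± 0.16 under vehicle (adjusted p = 0.0363), kept in 9 of 11 and 5 of 14 fits without 1 library. The call for Igf1 under Cmpd17b was lost without BPN_Cmpd17b replicate 1 or 4, and that for Igfbp3 under vehicle without BPN_vehicle replicate 2. Igf2 was lower under vehicle (-0.66 ± 0.15, adjusted p = 0.00174), and by -0.45, still called, without BPN_vehicle replicate 7.

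Of 18 partners of Gdf15 and of the integrated stress response, 4 were higher and 0 lower in BPH/2J under Cmpd17b, and 2 were higher and 0 lower under vehicle. Atf4, the transcription factor of this response, averaged 75.0 ± 8.66 CPM in BPH_Cmpd17b and 56.4 ± 2.86 CPM in BPN_Cmpd17b, with no overlap (log2 difference 0.41 ± 0.10, adjusted p = 0.00330). Under vehicle it averaged 72.9 ± 7.07 CPM in BPH_vehicle and 59.3 ± 7.90 CPM in BPN_vehicle (0.30 ± 0.08, adjusted p = 0.0122). Eif2ak4, the kinase that senses amino acid shortage, was higher by 0.51 ± 0.11 under Cmpd17b (adjusted p = 0.00197) and by 0.56 ± 0.10 under vehicle (adjusted p = 0.000116). Nupr1 (0.88 ± 0.26, adjusted p = 0.0226) and Phgdh, an enzyme of serine synthesis (0.87 ± 0.28, adjusted p = 0.0374), were higher under Cmpd17b, and without BPH_Cmpd17b replicate 6 they differed by 0.67 and 0.70, neither called. They were called in 8 and 6 of 11 fits without 1 library.

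The genes whose levels followed Mstn most closely were sought over the 25 libraries among 11242 genes whose mean log2 CPM was 1 or more. Ctso, a lysosomal cysteine protease, had a Pearson r of 0.88 with Mstn (Spearman rho 0.85), followed by Phkg1 (0.86), Zfp982 (0.86), Ubxn10 (0.85) and Atg4a (0.84). In all 5 every BPH/2J library lay below every BPN/3J library, so the likeness takes in the split between strains. Its size within a strain was not computed. Phkg1, a catalytic subunit of phosphorylase kinase, averaged 3.51 ± 1.11 CPM in BPH_Cmpd17b and 21.7 ± 3.05 CPM in BPN_Cmpd17b, and 3.597 ± 0.690 CPM in BPH_vehicle and 21.6 ± 4.85 CPM in BPN_vehicle. For Gdf15 the closest were Ppfia1 (r = 0.80), Pmepa1 (0.79), Fnip2 (0.78), Flcn (0.77) and Shb (0.76). Flcn is folliculin, a tumour suppressor, and Fnip2 encodes one of its binding partners. For Fst the values were lower, Dock2 (0.66), Flrt2 (0.66), Relch (0.65), Hpgd (0.65) and Tent2 (0.64). Each r is a description over libraries that share strain, treatment and batch.

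The genes next to the called members on the chromosome were read too, a choice made after the values were seen, with the order taken from RefSeq (GRCm38.p6). Of the 3 nearest tested genes on each side of Mstn, Inpp1, Hibch and 1700019D03Rik before it and Pms1, Ormdl1 and Osgepl1 after it, 0 were called between strains under either treatment, and their log2 differences lay between -0.23 and 0.43. Beside Gdf15, Isyna1 was higher in BPH/2J under Cmpd17b (0.70 ± 0.11, adjusted p = 1.70e-05) and under vehicle (0.80 ± 0.09, adjusted p = 1.87e-07), and the other 5 neighbours were not called. Beside Fst, Mocs2 was lower under Cmpd17b (-0.45 ± 0.10, adjusted p = 0.00143) and under vehicle (-0.41 ± 0.09, adjusted p = 0.000722). Under vehicle Hspb3 was lower (-0.57 ± 0.16, adjusted p = 0.0120) and Itga1 higher (0.39 ± 0.11, adjusted p = 0.0140).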

How the data were processed

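Left ventricle libraries were grouped by strain and treatment from the labels. The authors deposited expected counts per gene (40413 genes, 93.3% of values whole), rounded here to whole numbers. The submitters' processing notes name Trim Galore 0.6.7, STAR 2.7.9a and the build GRCm39 (mm39). How genes were counted, whether by strand, and from which annotation is not given in the sources used here. Overlapping and antisense genes are therefore uncertain. With 25 libraries, filterByExpr kept 15543 genes, scaled by TMM. edgeR 4.0.16 (R 4.3.3) fitted 1 coefficient per group plus batch, with a robust quasi-likelihood test and Benjamini-Hochberg adjustment over all genes (threshold 0.05). A standard error is the size of the difference divided by the square root of F. The code was tested on simulated data for the strain difference under vehicle, with no batch effect and no outlying library. Changes were planted only in genes with higher counts than Mstn and Fst, so that test does not cover these genes. Alternatives used DESeq2 1.42.0, limma 3.58.1 voom, RLE factors, other filters, single batches and fewer or more libraries. BPN_Cmpd17b has no batch 2 library. Members and gene lists were chosen with earlier results of these data known, so the calls of members, and their counts at an unadjusted p under 0.05, are descriptions and no member's p-value is printed. Named are all 10 members, up to 4 called genes per pathway list and contrast, the 5 genes most like Mstn, Fst and Gdf15, and 5 close relatives. Neighbours and matrix genes were added after values were seen. Among 73 pairs of libraries of 1 group, 0 were identical.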

Additional observations from a re-analysis of the deposited data

Results flagged for a closer look

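In BPH_Cmpd17b, replicate 6 lay far above the other 5 libraries for Fstl1, at 284 CPM where the nearest was 69.91 CPM, and for Inhba, at 6.403 CPM where the nearest was 1.43 CPM. Gdf15 stood apart in BPH_vehicle replicate 4, at 4.725 CPM beside 2.525 CPM in the next library. It also stood apart in BPN_Cmpd17b replicate 5, at 1.559 CPM beside 0.7973 CPM in the next. These 4 arose among 40 combinations of gene and group, of which chance alone would single out about 1 in 20.

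The kidney-like library labelled BPH_Cmpd17b replicate 7, in no comparison above, held 3 members above all other libraries when all 26 were scaled together. Fst was at 9.196 CPM there, with at most 1.091 CPM in the others. Acvr1b was at 46.06 CPM (others at most 20.04 CPM) and Acvr2b at 15.71 CPM (others at most 14.18 CPM).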

How the results depend on the processing

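Across 50 member differences and 1248 values under alternatives, 1227 moved by less than 1 SD between replicates, 21 moved by more (9 of these in batch 2 alone) and 0 called values changed sign. Most of these values come from fits that leave out 1 library and share nearly all data, and the SD is that of single libraries. Small moves were thus likely in advance and show little. Sign was scored only for differences called as reported. Changes of sign for Cmpd17b in BPH/2J are therefore not counted, such as those of Gdf15, Fstl1 and Inhba without BPH_Cmpd17b replicate 6. That of Mstn without BPH_vehicle replicate 6, from -0.33 to 0.12, is not counted either. The count of members called between strains under Cmpd17b, 2 as reported, was 1 with all 26 libraries, 1 with no filter on low counts, 1 with a filter of 1 CPM in 5 libraries and 1 in batch 1 alone; leaving out 1 library gave 1 to 3. It was 3 with 23 libraries (Acvr2a, Fstl1 and Mstn), with DESeq2 (Acvr2a, Gdf15 and Mstn) and with no batch term (Fstl1, Gdf15 and Mstn). It stayed 2 with limma voom (Acvr2a and Mstn) and with only the groups compared (Fstl1 and Mstn), without Gdf15 in both. Under vehicle, also 2 as reported, it was 3 with 23 libraries and with limma voom (Fst, Fstl1 and Mstn), 2 with only the groups compared (Fst and Fstl1), 1 with all 26 libraries, 0 with the 1 CPM filter and 1 in batch 2 alone; leaving out 1 library gave 2 each time. The 1 CPM filter removes Mstn and Fst from the genes tested. The share of all genes called also differed by setting, so nothing is read from these counts. Under Cmpd17b, 14.1% as reported, it was 7.68% with all 26 libraries, 7.29% with no filter, 14.8% with the 1 CPM filter and 12.7% in batch 1 alone. It was 19.1% with 23 libraries, 16% with DESeq2, 12.9% with no batch term, 21.8% with limma voom and 19.9% with only the groups compared. In batch 2 alone, the Cmpd17b effect in BPH/2J rests on 1 BPH_Cmpd17b library (replicate 6) that is assumed to vary like the other groups. Calls of that fit are therefore not read. The log2 differences there were 2.05 for Gdf15, 1.79 for Fstl1 and 1.595 for Fstl3, which are high in that library. The count of pathway genes called under Cmpd17b, 16, was 5 with all 26 libraries and 30 with only the groups compared. Under vehicle, 22, it was 9 with all 26 libraries and 11 in batch 2 alone. For Cmpd17b in BPH/2J, 0, it was 8 in batch 2 alone. Apart from what the construction of an alternative shows, the cause was not tested. Calls over all genes under vehicle numbered 2936 as reported and 1492 with all 26 libraries, and under Cmpd17b 2197 and 1195. The share of all genes called under vehicle was 18.9% as reported, 9.59% with all 26 libraries and 19.9% with the 1 CPM filter. It was 25.8% with 23 libraries, 26.4% with limma voom, 15.3% with only the groups compared and 7.1% in batch 2 alone.

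Mstn was not called in batch 2 alone, and in the fit of the vehicle groups alone it fell under the filter. Since it was chosen on these contrasts, its other calls support nothing. Depth limits Mstn and Fst most, with at most 42 counts per library. No paired analysis was possible because the labels give no replicate numbers shared between groups.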
